A study of Sus scrofa with 32 samples.

Results

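H3K27ac, the acetylation of lysine 27 on histone H3, was profiled in proliferating pig muscle satellite cells with and without SGC-CBP30. Its 4 peak lists are described here: both libraries whose titles hold CBP_0h and both whose titles hold WT_0h. They are 4 of the 32 samples of the series, 24 of which have a peak list. CBP 0 h cells were given SGC-CBP30 for 48 h in proliferation, at a dose written as 5 with the unit uM/ml, and WT 0 h cells were untreated. Both groups were taken at 0 h of differentiation, and no other allele or agent is named for either. The labels conflict: organism and cell type say pig and muscle satellite cell, while the cell line and growth protocol fields name C3H cells kept in RPMI. The peaks lie on pig chromosomes and the groups follow the titles. Nothing states that the libraries of a group came from separate cultures or animals, so errors and p values measure the spread between libraries, which may be technical.

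CBP and p300 are related acetyltransferases that deposit H3K27ac at active promoters and enhancers. Each also carries a bromodomain, a pocket that reads acetylated lysine, and SGC-CBP30 is a small molecule that occupies this pocket rather than the catalytic site. Satellite cells are the stem cells of skeletal muscle. They carry the transcription factor PAX7, and their proliferating progeny use MYF5 and MYOD1 before they leave the cell cycle and fuse. CUT&Tag directs a transposase to an antibody-bound mark and reads out the DNA beside it.

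Peak lists of CBP cells were shorter, and their peaks narrower, than those of WT cells. CBP replicates 1 and 2 held 10972 and 8969 peaks, against 19531 and 17338 in WT replicates 1 and 2, a ratio of means of 0.541 (0.333 among peaks with a deposited −log10 q of at least 5). They covered 6.30 and 4.77 Mb, against 13.0 and 11.6 Mb in WT, and the means were 5.53 ± 1.08 and 12.3 ± 0.975 Mb (SD, n = 2 each). The lowest WT library stood above the highest CBP library in both measures. Peaks at most 2.5 kb from an end of a protein-coding gene, called gene-end here, numbered 2553 and 1959 in CBP and 5643 and 4718 in WT. All other peaks on placed chromosomes, called distal, numbered 8380 and 6982 in CBP and 13796 and 12547 in WT. The CBP to WT ratio was 0.583 for distal and 0.435 for gene-end peaks, so gene-end peaks fell short by the larger factor. Distal peaks made up 77.4% ± 1.02 of the CBP lists and 71.8% ± 1.20 of the WT lists (SD, n = 2 each).

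Median peak width was 501 and 469 bp in the CBP libraries, against 551 and 554 bp in the WT libraries. Distal peaks had medians of 514 and 477 bp in CBP and 565 and 574 bp in WT. For gene-end peaks the medians were 459 and 436 bp in CBP and 519 and 508.5 bp in WT. The groups did not overlap in either class, and CBP was narrower by nearly the same factor in each, 0.870 and 0.871. Each of the library comparisons above had an exact two-sided permutation p of 0.333, the smallest that 2 libraries against 2 allow, so none could pass a threshold of 0.05. Read depth is not stated in any label or file header. Strong peaks, whose deposited −log10 q reached at least 5, made up 33.2 and 30.8% of the CBP lists and 51.6 and 52.8% of the WT lists. Depth, weaker signal in each cell and fewer cells carrying the mark cannot be told apart from peak lists.

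**Figure D1:**
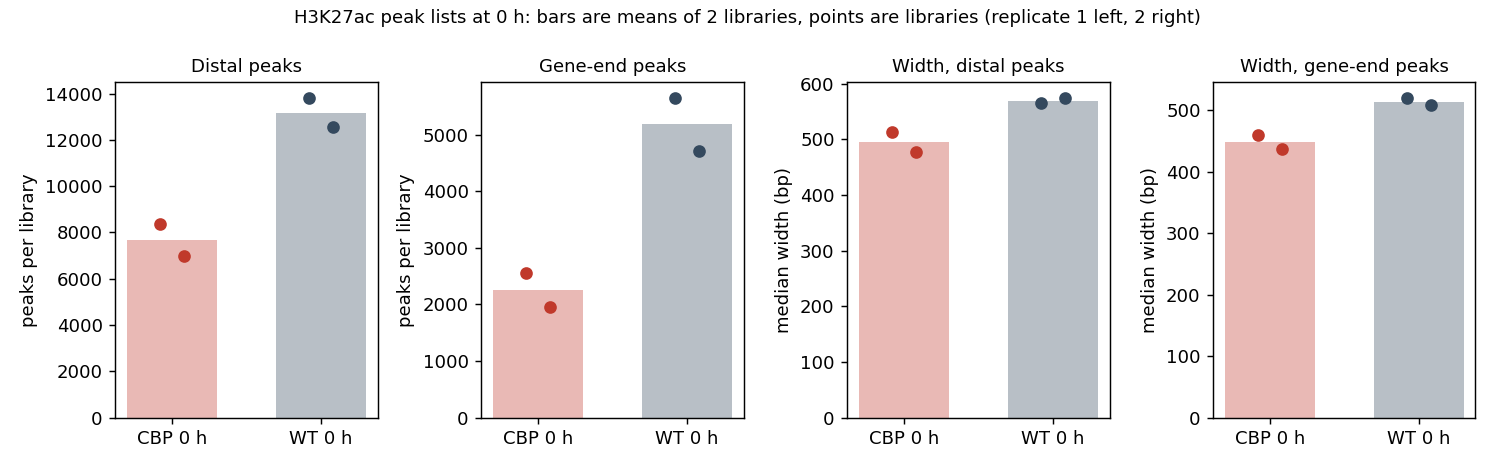
Number of H3K27ac peaks (left panels) and median peak width in bp (right panels) for distal and gene-end peaks, with CBP 0 h left of WT 0 h. Bars are means of 2 libraries and points are libraries; every CBP point lies below both WT points, and the gap in number is larger for gene-end peaks (ratio 0.435) than for distal peaks (ratio 0.583).

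Wide WT peaks were found again more often than narrow ones, in every list. Of the distal peaks of WT replicate 1, 46.8% overlapped a peak of CBP replicate 1, 40.5% a peak of CBP replicate 2 and 79.7% a peak of WT replicate 2. Its gene-end peaks were found in 35.4% of cases in CBP replicate 1, 28.4% in CBP replicate 2 and 74.0% in WT replicate 2. Both CBP lists therefore held fewer of these peaks than the second WT list did, in both classes. All peaks of the library were split by width into 5 groups of about equal number, with the same width limits for both classes. In the narrowest group of distal peaks, 22.5 and 17.8% were found in the CBP libraries and 48.3% in WT replicate 2. In the widest group the shares were 78.2 and 72.2% in CBP and 99.5% in WT. Gene-end peaks had 18.0 and 13.2% in CBP and 44.9% in WT in the narrowest group, and 65.9 and 56.6% in CBP and 98.6% in WT in the widest. Even the widest gene-end peaks, nearly all of which were in both WT lists, were missing from a CBP list in a large share of cases. In the other direction, CBP peaks were mostly WT peaks: 80.5 and 77.0% of the distal and 78.8 and 73.8% of the gene-end peaks of CBP replicate 1 lay in WT replicates 1 and 2.

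**Figure D2:**
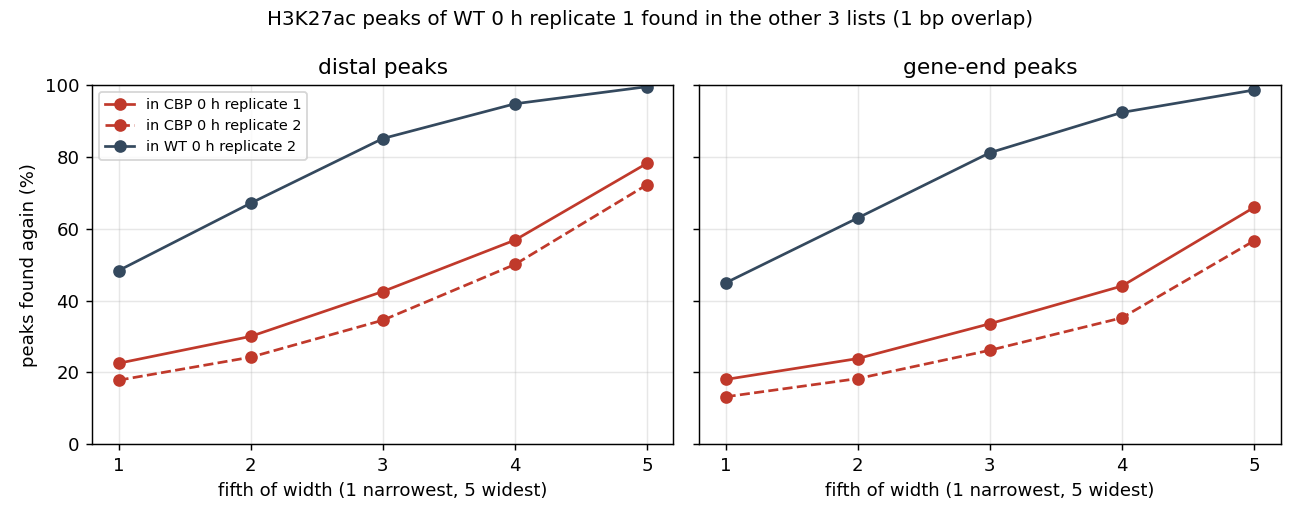
Share (%) of the H3K27ac peaks of WT 0 h replicate 1 that overlap a peak of each other list by at least 1 bp, in 5 width groups (1 narrowest), for distal (left) and gene-end (right) peaks. Red lines are the CBP libraries and the dark line is WT replicate 2; all lines climb with width, and in the widest group the CBP lines reach 78.2 and 72.2% for distal peaks but 65.9 and 56.6% for gene-end peaks.

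Merging the peaks of the 4 lists gave 23096 regions. A region was called lost when both WT lists and neither CBP list had it, kept when all 4 had it, and gained when both CBP lists and neither WT list had it. Of 10688 distal regions in both WT lists, 4665 were lost (43.6%), 4808 were kept and 1215 were in a single CBP list. Of 4133 gene-end regions in both WT lists, 2245 were lost (54.3%), 1385 were kept and 503 were in a single CBP list. Gained regions were fewer, 653 distal and 208 gene-end, which is 10.9 and 11.9% of the regions in both CBP lists. When every list was cut to its 8969 strongest peaks, 1736 distal regions were gained and 1605 lost, and 529 gene-end regions were gained and 848 lost, so gained distal regions then outnumbered lost ones. Without WT replicate 2, 7003 distal and 3533 gene-end regions were lost; without CBP replicate 2, 1335 and 452 were gained, and without WT replicate 1, 1024 and 327. Each library was also scored on single WT peaks rather than merged regions. Distal WT peaks were found again more often than gene-end ones by 10.3 and 11.2 percentage points in CBP, against -1.26 and 5.75 points in WT. A CBP list was scored on the peaks of both WT lists, with the mean taken. A WT list was scored on the peaks of the other WT list alone. The difference between the groups was 8.51 points (10.8 ± 0.577 against 2.25 ± 4.96, SD, n = 2 each), with an exact two-sided permutation p of 0.333. It was 4.26 points when weaker peaks, those below a −log10 q of 5, were left out, where the groups overlapped (exact permutation p = 0.667).

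Loss was not highest at the gene end itself. Of 1160 regions that overlapped a gene end, 45.3% were lost, against 60.1% of 2065 regions from 1 bp to 1 kb away and 52.6% of 908 from 1 to 2.5 kb. The share was 48.0% at 2.5 to 10 kb, 44.0% at 10 to 50 kb, 41.1% at 50 to 200 kb and 41.4% of 942 regions farther than 200 kb. WT lengths differed along this axis, with a median of 706 bp for regions over a gene end, 524 bp for those within 1 kb and 639 bp at 50 to 200 kb. Within classes of WT length the gap between gene ends and distal sites remained. Under 400 bp, 69.0% of distal and 72.2% of gene-end regions were lost, and at 600 to 800 bp 41.9% and 48.9%. At 1200 bp and over, 12.0% of distal and 22.7% of gene-end regions were lost. These shares are descriptions over regions of the same 4 libraries and carry no test.

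**Figure D3:**
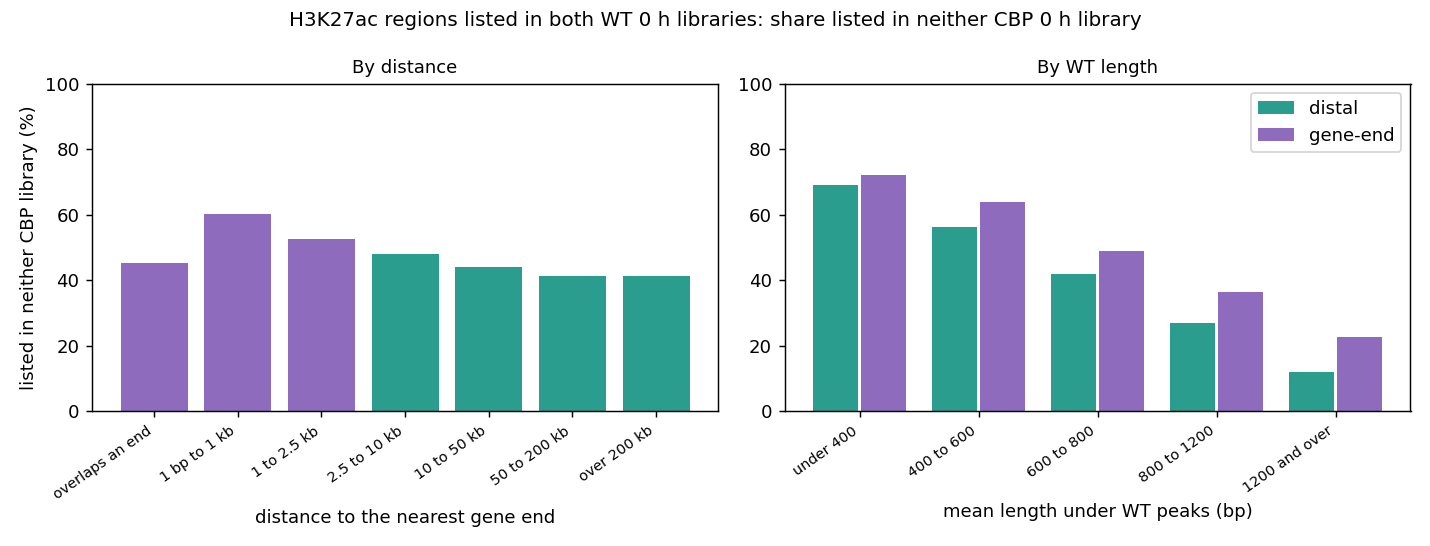
Share (%) of H3K27ac regions in both WT 0 h lists that were in neither CBP 0 h list, by distance to the nearest gene end (left) and by mean length under WT peaks in bp (right; distal green, gene-end purple). Loss peaks at 60.1% just beside gene ends, and it declines with WT length in both classes, to 12.0% for distal and 22.7% for gene-end regions of 1200 bp and over.

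Regions that stayed listed were narrower in CBP. Kept distal regions had median lengths of 636.5 and 552 bp in the CBP libraries and 809.5 and 788 bp in the WT libraries. Kept gene-end regions had 568 and 490 bp in CBP and 755 and 703 bp in WT. The median change was -0.38 on the log2 scale for distal and -0.39 for gene-end regions, a length ratio of 0.770 and 0.766. Of the 4808 kept distal regions, both CBP values lay below both WT values in 2877 (59.8%) and above them in 498. For the 1385 gene-end regions the counts were 858 (61.9%) and 131. In limma fits on log2 length, 913 distal regions (19.0% of those tested) were narrower and 61 (1.27%) wider at an adjusted p below 0.05, and 288 (20.8%) and 19 (1.37%) of the gene-end regions. These calls rest on 2 residual degrees of freedom: without CBP replicate 2, WT replicate 1 or WT replicate 2 limma called 0 regions in each class and direction. At an unadjusted p below 0.05 those fits had 1801, 1066 and 1153 distal and 576, 303 and 388 gene-end regions narrower. Without CBP replicate 1, 1105 distal regions were narrower and 13 wider, and 294 gene-end regions narrower and 3 wider.

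The same fit on the length of every region that reached 200 bp in 2 or more of the lists, with 500 bp added, called 5951 of 12262 distal regions lower (48.5%) and 744 higher (6.07%). It called 2583 of 4654 gene-end regions lower (55.5%) and 231 higher (4.96%). Of the lower regions, 77.1% of the distal and 84.2% of the gene-end ones had no listed base in either CBP library, and the fold then depends on the added length. Without WT replicate 1, or without WT replicate 2, limma called 0 regions of either class; at an unadjusted p below 0.05, 978 and 1070 distal and 258 and 347 gene-end regions were lower. Without CBP replicate 1 and without CBP replicate 2 the counts higher were 41 and 67 distal and 9 and 17 gene-end. With quantile scaling, in which the libraries are given a common distribution of lengths, 1695 distal regions were lower and 1947 higher, and 665 and 631 gene-end regions.

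The longest lost distal regions held 2 to 3 kb of H3K27ac in both WT lists and none in CBP. A region inside AP3S2, which encodes an adaptor subunit of vesicle transport (Sscrofa11.1, chr7:55425383-55428513), had 0 and 0 bp in CBP and 2988 and 3126 bp in WT. A region inside ZNF521, a zinc finger factor of progenitor cells (chr6:110003496-110006557), had 0 and 0 bp in CBP and 2013 and 3062 bp in WT. Their listing in WT alone at 0 h follows from the definition of lost and is not a result. Neither lay under an H3K4me3 peak at 0 h. At 60 h both were listed in each group, in CBP with 1149 and 1210 bp (AP3S2) and 982 and 1048 bp (ZNF521). A region inside EPAS1, the hypoxia factor HIF-2 alpha (chr3:94217222-94219484), had 0 and 0 bp in CBP and 2188 and 2263 bp in WT. At 60 h the EPAS1 region had 0 and 0 bp in CBP and 946 and 590 bp in WT. In BRD2, a bromodomain protein that reads acetylated histones, a region 9.71 kb from the gene ends (chr7:25150541-25152883) had 0 and 0 bp in CBP and 2343 and 2264 bp in WT. That region lay wholly under H3K4me3 in all 4 libraries of that mark at 0 h, CBP and WT alike. The other regions among the 10 longest lay nearest to RAD51B, NXN, GNA12, GFOD1, E2F6 and SGPP1. In CBP at 60 h, those nearest to NXN, GFOD1 and SGPP1 had 0 and 0 bp. Those nearest to RAD51B, GNA12 and E2F6, and the one in BRD2, were listed in both CBP libraries of 60 h.

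The longest gained distal regions were shorter than the longest lost ones. The longest lay 365 kb from the nearest gene end, that of MYC, the growth-promoting transcription factor (chr4:12825573-12827277), and had 1705 and 1153 bp in CBP and 0 and 0 bp in WT. A region 2.67 kb from LIF, a cytokine that acts on myoblast proliferation (chr14:47217800-47218873), had 1074 and 1004 bp in CBP and 0 and 0 bp in WT. That both were listed in every CBP library and in no WT library follows from the definition of gained and is not a result. Others lay inside GLIS3, JADE1, SLC9A9, GNG12, C10H9orf3 and ESRRG, or nearest to SRSF3 and TNS4.

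The distal regions that were longest in CBP differed in how close they came to their WT length. In MTCL1, which encodes a microtubule-binding protein (chr6:99075501-99079912), CBP had 3918 and 4161 bp and WT 4412 and 4253 bp. In ZMYND8, a chromatin reader with a bromodomain (chr17:49354025-49357264), CBP had 3240 and 2975 bp and WT 3111 and 2986 bp. The ZMYND8 groups overlapped, and the MTCL1 groups did not. A region 5.20 kb from SPARC, a matrix glycoprotein of muscle progenitors and fibroblasts (chr16:71357024-71362968), had 3506 and 3254 bp in CBP and 5573 and 5869 bp in WT, so it stayed listed but was shorter. The 10 longest, of which these are 3, were chosen for their length in CBP, so their staying listed is not a result.

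The other marks at 0 h were set on the same regions. H3K4me3, the promoter mark, overlapped 80.4 and 80.3% of the lost gene-end regions in CBP and 86.7 and 87.0% in WT. For kept gene-end regions it was 77.3 and 77.1% in CBP and 80.9 and 81.1% in WT. Most of the lost gene-end regions thus still overlapped an H3K4me3 peak in CBP. Of the lost distal regions, 7.76 and 7.55% overlapped H3K4me3 in CBP and 12.2 and 13.1% in WT, close to the kept ones at 7.34 and 7.24% in CBP and 11.3 and 11.7% in WT. H3K27me3, the Polycomb mark on the same lysine, overlapped 6 and 1 of the 2245 lost gene-end regions in CBP and 1 and 1 in WT. Of the 4665 lost distal regions it overlapped 4 and 2 in CBP and 0 and 1 in WT, so few of these sites lay under a listed H3K27me3 peak in either group.

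For genes, the value was the length under H3K27ac peaks within 5 kb of either end, and 8965 genes were tested. At 0 h, 6342 of them had a listed base in some library and 2623 had none. Those 2623 were tested because of peaks at 60 h and could not be called. They count in the shares over all genes. Among genes with a listed base at 0 h the share lower is therefore above 28.2%. Gene lists hold such empty genes too, in numbers not given here. Of the 8965 genes, limma called 2531 lower (28.2%) and 126 higher (1.41%) at a Benjamini-Hochberg adjusted p below 0.05. Both CBP values lay below both WT values in 4065 genes (45.3%) and above them in 333 (3.71%). Among the lower genes 1749 had no listed base in either CBP library and 782 kept some. Windows of many named genes overlap those of neighbours, so a listed length may belong to another gene. Examples are CDKN1A with RAB44, LAMB1 with DLD, S100A4 with S100A6, CTNNB1 with ULK4 and KDM6B with NAA38. The median change of all genes was -0.35 on the log2 scale of length plus 500 bp, and 0.13 with quantile scaling, which called 1469 genes lower (16.4%) and 761 higher (8.49%). A gene with no listed base at 0 h, such as ELF3, has a change of 0.00, or 0.13 with quantile scaling. The quantile median is thus the value of an empty gene. Changes of gene lists are set beside both medians. With lists of equal length 991 genes were lower and 370 higher, and each of the 23 gene lists below other than the marker lists had fewer lower calls. The counts lower were 1491 without CBP replicate 2 and 1481 without WT replicate 1, and the count higher was 56 without CBP replicate 1.

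The labelled cell type was checked against its defining markers. PAX7 and MYF5 carried H3K27ac in both groups, and several other markers did not. MYOD1 had no listed H3K27ac in any of the 4 libraries, and in H3K4me3 had 0 and 0 bp in CBP and 1134 and 857 bp in WT. CDH15, DES and VCAM1 had no H3K27ac in any library either, while CDH15 and DES lay under H3K4me3 in all 4. NCAM1 had 0 and 0 bp of H3K27ac in CBP and 266 and 451 bp in WT, and ITGA7 0 and 0 bp in CBP and 651 and 405 bp in WT. Markers of fibroblasts were listed too. COL3A1 had 0 and 382 bp in CBP and 1647 and 1960 bp in WT, COL1A1 0 and 0 bp in CBP and 1113 and 701 bp in WT, and TWIST2 386 and 95 bp in CBP and 456 and 340 bp in WT. PDGFRA had no H3K27ac, but 2517 and 2694 bp of H3K4me3 in CBP and 4901 and 4710 bp in WT. The part of fibroblasts in the results was not tested. MYOG, ACTA1 and CKM, which mark differentiated muscle, had no base in H3K27ac or H3K4me3.

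Of 18 satellite cell and progenitor genes tested, 7 were called lower (38.9%, against 28.2% of all genes) and 0 higher. Of all genes tested, 1.41% were called higher. The median log2 change of the list was -0.78 (with quantile scaling 5 and 0, median -0.26). PAX7, the defining factor of the lineage (gene 100625823, chr6:77160827-77268626), had 707 and 691 bp in CBP and 3955 and 3393 bp in WT. The groups were far apart, with a log2 change of -1.80 ± 0.0920 (SE, limma adjusted p = 0.00027). The receptor MET, which binds hepatocyte growth factor, had 0 and 0 bp in CBP and 894 and 927 bp in WT (adjusted p = 0.000259). HES1, a Notch target, had 0 and 0 bp in CBP and 775 and 952 bp in WT (adjusted p = 0.0004). CAV1, a membrane scaffold, had 1785 and 1042 bp in CBP and 3273 and 2719 bp in WT (adjusted p = 0.0258). SDC4, a heparan sulphate proteoglycan, had 0 and 0 bp in CBP and 937 and 668 bp in WT (adjusted p = 0.0191). With lists of equal length MET was not called (adjusted p = 0.466), and with quantile scaling neither CAV1 (0.403) nor MYF5 (0.0896) was. Without WT replicate 1 the list had 4 lower calls and 1 higher, with lists of equal length 3 and 1, and MYF5 was not called without WT replicate 1 (0.0861) or 2 (0.08). SDC4 was not called with any library left out (0.0539 to 0.108), nor CAV1 without WT replicate 1 (0.139) or 2 (0.0635).

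Distal sites around the same genes did not all follow their gene ends. PAX7 had 8 distal regions within 100 kb in both WT lists, of which 1 was lost and 6 were kept. Around MET 2 of 8 were lost and 5 kept, and around CAV1 1 of 8 was lost and 5 kept. MYF5 (gene 100153269, chr5:100753440-100755558), with 3051 and 1764 bp at its ends in CBP and 5294 and 5550 bp in WT, lost all 3, which it shares with its neighbour MYF6. At PAX7 the gene ends were lower while nearby distal peaks mostly stayed listed, and at MYF5 every nearby distal region was lost. In the whole list, 41 of 92 distal regions within 100 kb were lost (44.6%), near the 43.6% of all distal regions.

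Among 28 myogenic factors and partners, 11 were called lower (39.3%, against 28.2% of all genes) and 0 higher, with a median of -0.36. Quantile scaling gave 7 and 3, with a median of 0.10. Without WT replicate 1 and WT replicate 2 the counts lower were 6 and 7. MSC, or musculin, a repressor of myogenic factors, had 310 and 0 bp in CBP and 2068 and 1984 bp in WT (log2 -1.99 ± 0.230, adjusted p = 0.00308). ID2, which sequesters E proteins, had 0 and 0 bp in CBP and 833 and 1118 bp in WT (adjusted p = 0.000655). The 2 WT libraries were listed and CBP was nearly or fully empty at both. Contractile and sarcomere genes, few of which are active before differentiation, had 3 of 26 lower and 0 higher (median 0.00). The 3 were MYL6B, XIRP1 and CSRP3, none above 1259 bp in WT, and none of them stayed called without CBP replicate 1 (limma adjusted p 0.0754 to 0.109), CBP replicate 2 (0.0864 to 0.122) or WT replicate 1 (0.0579 to 0.096). XIRP1 was also not called without WT replicate 2 (adjusted p = 0.0632).

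**Figure D4:**
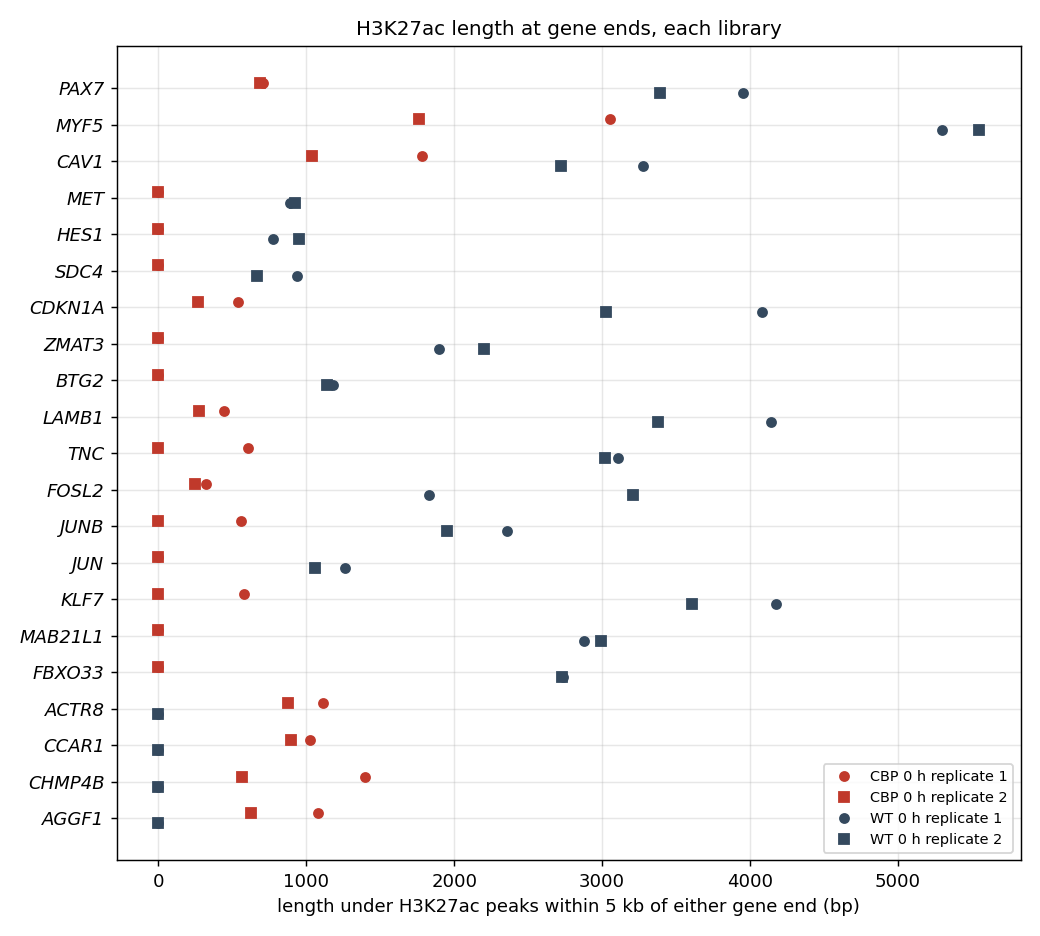
Length (bp) under H3K27ac peaks within 5 kb of either gene end for 21 named genes, with a symbol for each library; CBP 0 h (red) is drawn above WT 0 h (dark) in each row, circles replicate 1 and squares replicate 2. PAX7, CDKN1A and LAMB1 keep short CBP lengths (PAX7 707 and 691 bp against 3955 and 3393 bp in WT), many others lie at 0 in CBP, and the bottom rows are listed in CBP only.

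Cell cycle exit and p53 target genes had the largest share of lower calls among the lists with over 10 tested genes, 16 of 31 (51.6%, against 28.2% of all genes tested), with 1 higher and a median of -0.92 (with quantile scaling 11 and 1, median -0.41). CDKN1A, which encodes the cell cycle inhibitor p21 (gene 100152215, chr7:32354776-32363771), had 537 and 267 bp in CBP and 4082 and 3027 bp in WT. The groups were far apart, with a log2 change of -2.17 ± 0.309 (SE, adjusted p = 0.00608), and all 4 distal WT regions within 100 kb were lost, while 1 region, that nearest to SRSF3 named above, was gained. ZMAT3, a p53-induced RNA-binding protein, had 0 and 0 bp in CBP and 1895 and 2203 bp in WT (adjusted p = 0.000256). BTG2, an antiproliferative p53 target, had 0 and 0 bp in CBP and 1184 and 1138 bp in WT (adjusted p = 0.00548). BBC3, which encodes the cell death protein PUMA, had 0 and 0 bp in CBP and 998 and 1271 bp in WT (adjusted p = 0.00195). No CBP library listed a base at these 3 genes. At a −log10 q of at least 5 BTG2 was not called (adjusted p = 0.122), and with lists of equal length BBC3 was not (0.105). In the same list 34 of 60 nearby distal regions were lost (56.7%), against 43.6% of all, with no test.

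Genes of the cell cycle itself were called lower in shares somewhat above the 28.2% of all genes tested, with no test of the difference. That 28.2% includes genes empty at 0 h, so these shares are not shown to exceed that of genes with listed H3K27ac. Of 29 S and M phase genes, 10 were lower (34.5%) and 1 higher, with a median of -0.49 (with quantile scaling 6 and 3). Of 11 G1 cyclins and their kinases, 4 were lower (36.4%) and 0 higher (with quantile scaling 1 and 0). The 1 higher call was lost when any library was left out, with the replicate number as a block, and when weaker peaks were left out. Without WT replicate 1 the S and M phase count lower was 6, and without CBP replicates 1 and 2 the G1 count was 2 and 1. CDC45, a subunit of the replicative helicase, had 0 and 0 bp in CBP and 702 and 974 bp in WT (adjusted p = 0.002). CCNG2, an atypical cyclin linked to cell cycle arrest, had 0 and 0 bp in CBP and 546 and 526 bp in WT (adjusted p = 0.000963). CDC37, a kinase chaperone, kept 350 and 318 bp in CBP against 719 and 563 bp in WT (adjusted p = 0.0219). Quantile scaling turned this to 0.33, so its direction depends on the scaling. It was not called without CBP replicate 1 (0.0725) or 2 (0.11).

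Of 34 extracellular matrix and fibroblast genes, 16 were lower (47.1%) and 0 higher, with a median of -0.80; quantile scaling left 5 lower and 2 higher, with a median of -0.17. Without CBP replicates 1 and 2 the counts lower were 10 and 8, and without WT replicates 1 and 2 they were 6 and 7. LAMB1, a laminin chain of the basement membrane (gene 396707, chr9:107670120-107747242), had 443 and 278 bp in CBP and 4140 and 3378 bp in WT. Its change was -2.31 ± 0.158 (SE, adjusted p = 0.000655), and all 7 distal regions within 100 kb were lost. TNC, the matrix protein tenascin C, had 604 and 0 bp in CBP and 3105 and 3020 bp in WT (adjusted p = 0.0115), yet 7 of its 10 nearby distal regions were kept. S100A4, a calcium-binding protein of fibroblasts, had 393 and 0 bp in CBP and 1829 and 1908 bp in WT (adjusted p = 0.00763). All 3 stood apart by group, while the distal sites of LAMB1 and TNC went opposite ways. TNC was not called without WT replicate 1 (0.0684) or 2 (0.0546). Of 28 SRF target and actin cytoskeleton genes, 10 were lower (35.7%, against 28.2% of all genes) and 0 higher, with a median of 0.00. Quantile scaling gave 6 and 1, with a median of 0.13. Both medians are those of a gene empty at 0 h. Fewer were lower without CBP replicate 2, WT replicate 1 or WT replicate 2. ZYX, a focal adhesion protein, had 0 and 0 bp in CBP and 1531 and 1311 bp in WT (adjusted p = 0.00203), and was not called with lists of equal length (1.0).

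AP-1 and immediate early genes, which respond to growth factors within minutes, had 9 of 29 lower and 0 higher. The share lower, 31.0%, was near the 28.2% of all genes, and the median was -0.60. Quantile scaling gave 8 and 4, with a median of 0.01. Without CBP replicate 2 the count lower was 5, and without WT replicate 1 it was 3. JUN, a DNA-binding subunit of AP-1, had 0 and 0 bp in CBP and 1261 and 1059 bp in WT (log2 -1.73 ± 0.289, adjusted p = 0.0101). FOSL2, a partner of JUN, had 320 and 249 bp in CBP and 1833 and 3210 bp in WT (log2 -1.91 ± 0.246, adjusted p = 0.00445). Both genes were lower in each CBP library than in each WT library. With lists of equal length the change of FOSL2 turned to 0.65 (adjusted p = 0.00338), and JUN was not called without CBP replicate 2 (0.0583) or WT replicate 1 (0.0652). Near the genes of this list 33 of 112 distal regions were lost (29.5%) and 52 kept, against 43.6% lost over all distal regions, a difference with no test. Around FOSL2 1 of 6 was lost and 5 were kept, and 1 region was gained.

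Of 26 CBP, p300 and bromodomain genes, 7 were lower and 0 higher (26.9%, median -0.50), a share near that of all genes; quantile scaling left 1 lower and 1 higher, and leaving out a library 4 or 5 lower. EP300, which encodes p300, had 393 and 424 bp in CBP and 1012 and 880 bp in WT (log2 -0.67 ± 0.0911, adjusted p = 0.00487). Quantile scaling turned this to 0.01 (adjusted p = 0.954), so its direction depends on the scaling. Of 17 Polycomb and H3K27 demethylase genes 6 were lower (35.3%, against 28.2% of all genes) and 0 higher, also with quantile scaling (median -0.74 without it). EED, a core subunit of the H3K27 methyltransferase, had 274 and 253 bp in CBP and 1387 and 1529 bp in WT (log2 -1.36 ± 0.0839, adjusted p = 0.000452). KDM6B, an H3K27 demethylase, had 0 and 0 bp in CBP and 1387 and 1229 bp in WT (adjusted p = 0.00593). EED was not called with lists of equal length (0.217). Of 16 histone deacetylase and sirtuin genes 5 were lower and 0 higher (31.2%, near the 28.2% of all genes). Quantile scaling gave 2 and 1, lists of equal length 0 lower, and leaving out a library 2 or 3 lower.

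HOX genes, regulators of body pattern, had 11 of 23 lower (47.8%, against 28.2% of all genes) and 0 higher (1.41% of all genes). The median was -0.39, and quantile scaling gave 8 and 1. HOXA7 had 932 and 1223 bp in CBP and 5946 and 4562 bp in WT (log2 -1.86 ± 0.162, adjusted p = 0.00133). HOXC6 had 0 and 0 bp in CBP and 1961 and 1779 bp in WT (adjusted p = 0.000473), and HOXB2 had 0 and 0 bp in CBP and 1613 and 2153 bp in WT (adjusted p = 0.0014). In each the groups were far apart, but neighbouring HOX genes share windows, so these counts are not of separate sites. HOXC6 (0.0569) and HOXB2 (0.481) were not called with lists of equal length.

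Signalling lists differed in their counts. Of 22 WNT pathway genes 9 were lower (40.9%, against 28.2% of all genes) and 0 higher, with a median of -0.53. Quantile scaling gave 6 and 1, with a median of -0.01. CTNNB1, which encodes beta-catenin, had 0 and 0 bp in CBP and 1471 and 1524 bp in WT (log2 -2.00 ± 0.228, adjusted p = 0.00296). Of 26 TGF-beta and BMP genes 7 were lower (26.9%) and 1 higher, and with quantile scaling 3 and 7. SMURF2, a ubiquitin ligase that limits TGF-beta receptors, had 0 and 0 bp in CBP and 1680 and 2091 bp in WT (adjusted p = 0.000259), with 8 of 12 nearby distal regions kept. SMURF2 was not called with lists of equal length (0.068). Of 29 IGF, FGF and HGF signalling genes 4 were lower (13.8%, below the 28.2% of all genes) and 1 higher. Quantile scaling gave 3 and 2. SPRY2, a feedback inhibitor of FGF signalling, had 1118 and 1136 bp in CBP and 3497 and 2782 bp in WT (log2 -1.16 ± 0.107, adjusted p = 0.00158). Its relative SPRED1 was listed only in CBP, with 483 and 423 bp against 0 and 0 bp in WT (adjusted p = 0.0118). SPRED1 lost its call when any library was left out (0.0519 to 0.0633). Of 24 Hippo pathway genes 8 were lower and 1 higher, of 16 Notch genes 5 and 0, and of 14 fusion and adhesion genes 3 and 1. Their shares lower were 33.3, 31.2 and 21.4%, near or below the 28.2% of all genes. With quantile scaling Hippo genes had 5 lower and 4 higher, Notch genes 3 and 1, and fusion genes 0 and 1. The Notch count lower was 2 without CBP replicate 2 and 2 without WT replicate 1, and the fusion count 1 without WT replicate 1. Without 1 library the TGF-beta and BMP count was as low as 4 (without CBP replicate 2), with 4 higher without WT replicate 1, and the growth factor count 2 (without CBP replicate 2 or WT replicate 1). WWTR1, the coactivator TAZ, had 0 and 0 bp in CBP and 883 and 743 bp in WT (adjusted p = 0.00126). JAM3, an adhesion molecule, had 1380 and 1091 bp in CBP and 2354 and 2218 bp in WT (adjusted p = 0.00692), with 0.04 under quantile scaling and all 6 nearby distal regions kept.

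Housekeeping genes were called lower too. Of 68 cytoplasmic ribosomal protein genes, 26 were lower (38.2%) and 2 higher (median -0.48; with quantile scaling 13 and 7, median -0.09). Without CBP replicate 2 and WT replicate 1 the counts lower were 15 and 16. RPL4 had 258 and 0 bp in CBP and 2589 and 2134 bp in WT (log2 -2.21 ± 0.225, adjusted p = 0.00212). Of 42 core transcription and splicing genes, 13 were lower (31.0%, near the 28.2% of all genes) and 2 higher (median -0.47; with quantile scaling 8 and 6), with 7 lower without CBP replicate 2 or WT replicate 1. POLR2A, the largest subunit of RNA polymerase II, had 0 and 0 bp in CBP and 1755 and 1630 bp in WT (log2 -2.13 ± 0.298, adjusted p = 0.00578). CBP was nearly or fully empty at both, and the windows of both overlap those of neighbouring genes. In the second list 36 of 57 nearby distal regions were lost (63.2%), against 43.6% of all distal regions, with no test. Of 30 stress response genes 11 were lower (36.7%) and 1 higher, and of 23 interferon and NF-kB response genes 8 (34.8%) and 0, against 28.2% lower among all genes. With quantile scaling each list had 6 lower and 2 higher. The stress count lower was 5 without CBP replicate 2 and 7 without WT replicate 2, and the interferon count 4 without WT replicate 1 and 5 without WT replicate 2. TRIB3, a pseudokinase of the ER stress response, had 0 and 0 bp in CBP and 1279 and 1060 bp in WT (adjusted p = 0.00235). IFIT3, an interferon-induced antiviral protein, had 0 and 0 bp in CBP and 1002 and 1843 bp in WT (adjusted p = 0.00343).

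**Figure D5:**
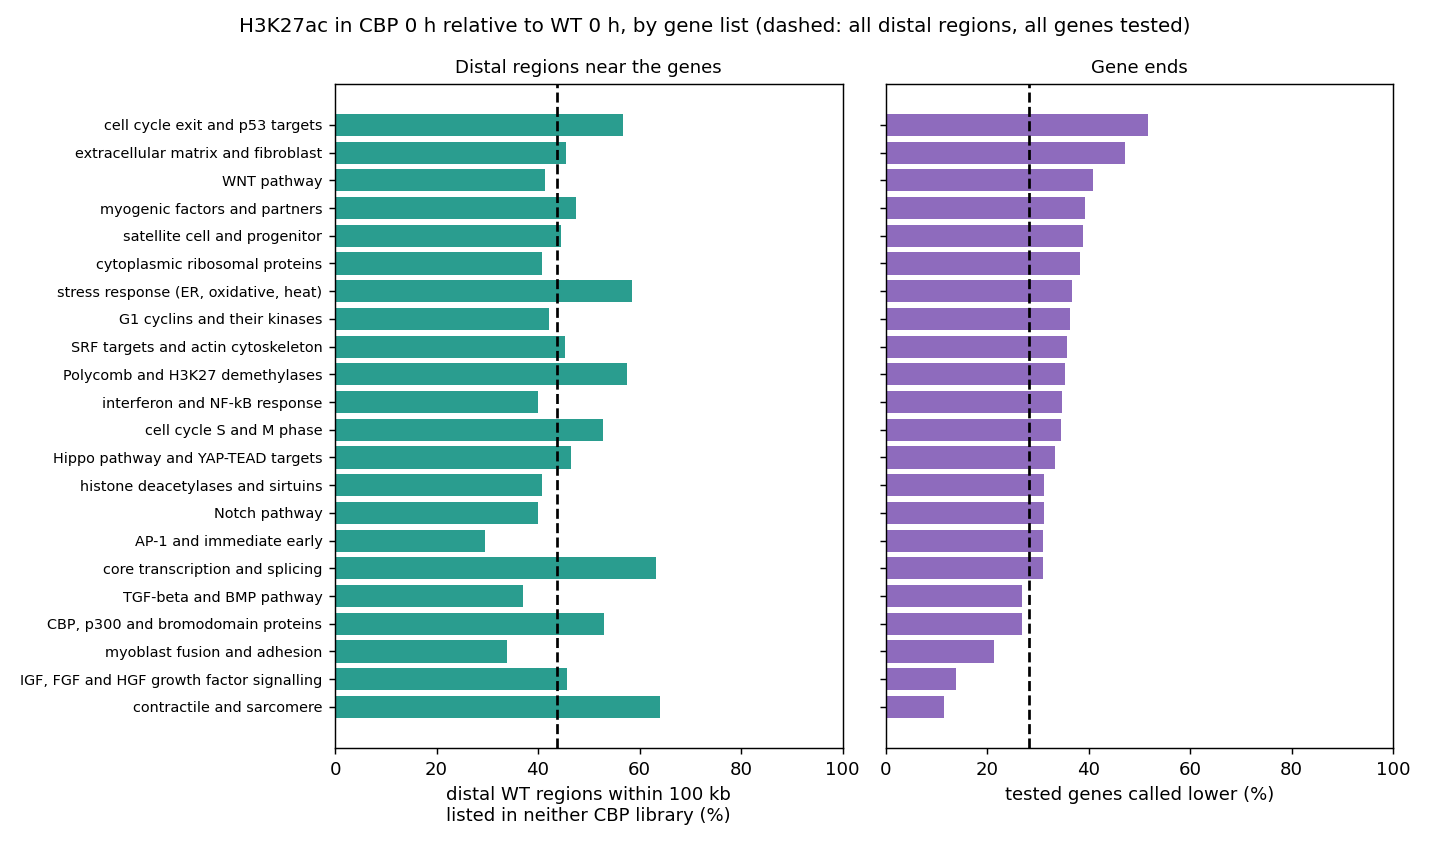
Gene lists with at least 10 distal WT regions nearby, lists of markers of other cell types left out: share (%) of those distal regions listed in neither CBP 0 h library (left) and share (%) of tested genes called lower in CBP 0 h than in WT 0 h (right). Dashed lines mark all distal regions (43.6%) and all tested genes, with those empty at 0 h included (28.2%). Among the lists drawn, p53 targets lead the gene ends at 51.6%, while AP-1 genes have the lowest distal share at 29.5%.

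The 10 genes with the largest decreases had H3K27ac of over 2 kb in each WT library. PPP1R10, a regulator of protein phosphatase 1, and MRPS18B, a mitochondrial ribosomal protein, share a window with 0 and 0 bp in CBP and 3849 and 3123 bp in WT (adjusted p = 0.000768 and 0.000779). WFDC1, a secreted protein with a protease inhibitor domain, had 0 and 0 bp in CBP and 3813 and 3073 bp in WT (adjusted p = 0.000256). MAB21L1, a developmental gene of the eye, had 0 and 0 bp in CBP and 2879 and 2995 bp in WT (adjusted p = 0.000256). None of these had a listed base in CBP. FBXO33, a ubiquitin ligase adaptor, had 0 and 0 bp in CBP and 2736 and 2727 bp in WT (adjusted p = 0.000256). KLF7, a zinc finger factor (gene 100038003, chr15:110282399-110380165), had 577 and 0 bp in CBP and 4175 and 3608 bp in WT (log2 -2.58 ± 0.366, adjusted p = 0.00604). As at PAX7, distal regions near KLF7 mostly stayed listed, with 2 of 12 lost and 9 kept. CHRNB1, which encodes an acetylcholine receptor chain of the neuromuscular junction, shares its window with POLR2A, and the list also held BICD1 and 2 uncharacterised loci, LOC102160869 beside VCL and LOC102167874.

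The 10 largest increases were shorter. ACTR8, a subunit of the INO80 chromatin remodeller, had 1113 and 880 bp in CBP and 0 and 0 bp in WT (log2 1.58 ± 0.109, adjusted p = 0.000609). CCAR1, a coactivator of cell cycle and apoptosis genes, had 1024 and 896 bp in CBP and 0 and 0 bp in WT (adjusted p = 0.000509). AGGF1, an angiogenic factor, had 1080 and 626 bp in CBP and 0 and 0 bp in WT (adjusted p = 0.00548). WT was empty at all 3. The window of ACTR8 overlaps those of CHDH, IL17RB and SELENOK, and the window of AGGF1 overlaps that of ZBED3. FAM43A had 1739 and 942 bp in CBP and 299 and 0 bp in WT (adjusted p = 0.026), which was not called without CBP replicate 1 (0.107) or WT replicate 2 (0.1). The other 6 were MAATS1, STX1A with its neighbour LOC106509660, CHMP4B, DCTN6 and ABCB8, all at 0 bp in WT. AGGF1 was not called with lists of equal length (0.226), and MAATS1, STX1A and DCTN6 were not called with any library left out (0.0564 to 0.177). Of the 12 named genes called higher, 0 were called when weaker peaks were left out, against 61 of the 107 named genes called lower; with lists of equal length the numbers were 10 of 12 and 46 of 107. Of those 107, 28 were called in every one of 13 alternative settings, PAX7, MSC, CDKN1A, ZMAT3, LAMB1, KLF7, CTNNB1, HOXA7 and POLR2A among them.

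Some gene ends held long H3K27ac in CBP; these were picked after their values were seen. TGFB2, a growth factor of the TGF-beta family, had 6105 and 4286 bp in CBP and 4594 and 4278 bp in WT (log2 0.19 ± 0.270, adjusted p = 0.807). BCL6, a transcriptional repressor, had 3199 and 3298 bp in CBP and 3174 and 3645 bp in WT (log2 -0.06 ± 0.0799, adjusted p = 0.784). RUNX1, a transcription factor, had 4126 and 3074 bp in CBP and 4233 and 3784 bp in WT (log2 -0.15 ± 0.139, adjusted p = 0.578). In these 3 the groups overlapped, while quantile scaling gave changes of 0.995 for TGFB2, 0.697 for BCL6 and 0.607 for RUNX1. CFL2, the muscle form of cofilin, had 3120 and 2983 bp in CBP and 2492 and 2513 bp in WT (log2 0.24 ± 0.0909, adjusted p = 0.118). Both CBP libraries lay above both WT libraries at CFL2, and quantile scaling gave a change of 1.03. HOXA10, the longest in CBP, had 6371 and 6022 bp in CBP and 9711 and 9148 bp in WT and was called lower (log2 -0.57 ± 0.0560, adjusted p = 0.00175; 0.00 with quantile scaling).

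Distal loss was also set beside the calls at gene ends, over all genes. Of 1985 distal WT regions within 100 kb of a gene called lower and of no listed gene that was not called, 46.1% were lost. Of 2725 regions near listed genes that were not called and near none called lower, 42.1% were lost, as were 47.3% of 1611 regions near both kinds and 42.2% of 4367 regions near neither. Median WT lengths were 630.5, 635, 639.5 and 626.5 bp. The shares are a description over regions, with no test.

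Most markers of 5 other cell types, fibroblasts apart, had no listed H3K27ac. Of 14 endothelial markers 1 had a listed base, ROBO4, with a summed length of 565 and 311 bp in CBP and 1525 and 1550 bp in WT. Of 14 blood and immune markers 3 were listed, summing to 0 and 0 bp in CBP and 2561 and 1585 bp in WT. Of 14 adipogenic markers 5 were listed, summing to 300 and 276 bp in CBP and 2756 and 3600 bp in WT. These were PPARG, CEBPB, CEBPD, CIDEC and EBF1. Of only 5 genes of this list tested, 4 were called lower and 0 higher, against 28.2% lower among all genes. With quantile scaling 2 were lower. EBF1 had 0 and 0 bp in CBP and 635 and 572 bp in WT (adjusted p = 0.000591). Neuronal and Schwann markers had 1 of 12 listed (0 and 0 bp in CBP, 210 and 300 bp in WT) and epithelial markers 1 of 14 (0 and 0 bp in CBP, 305 and 336 bp in WT). All 5 sums were lower in CBP, in the same direction as the muscle lists, and their part in the other results was not tested.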

How the data were processed

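H3K27ac CUT&Tag peak lists were compared between 2 CBP 0 h and 2 WT 0 h libraries. The authors deposited a narrow peak list per library, made on Sscrofa11.1 with MACS2 2.1.0 after Trimmomatic, per the submitters' processing notes; no aligner, caller option, control library or read depth is named there, so the precision that depth gives cannot be stated. Peak positions, in bp, were used as deposited. The deposited −log10 q and −log10 p values of each list, computed by the authors' caller within that library, were used only for a stricter list and to rank peaks within a list. The 8 IgG samples were not analysed here.

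On chromosomes 1 to 18 and X, overlapping peaks were merged (Python 3.11.15, pandas 2.3.3, numpy 2.4.6). The gene table (RefSeq, 19484 protein-coding genes, no strand) gave gene ends. An overlap of 1 bp counted as shared. For the share of WT peaks found again, a CBP list was scored on each WT library and averaged. A WT list was scored on the other WT library alone. Gene lengths plus 500 bp, on the log2 scale, were fitted with limma (version 3.58.1, R 4.3.3, trend and robust) where 200 bp or more was listed in 2 or more of the 8 H3K27ac libraries of 0 h and 60 h, which shared the spread (4 residual degrees of freedom). Regions were fitted on the 4 libraries (2 residual degrees of freedom). Adjusted p values are Benjamini-Hochberg over all genes or over all regions of both classes, with calls below 0.05. At genes empty in a group the fold depends on the added length, so lengths are given. Library values were compared by exact two-sided permutation tests.

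Named genes were, by rule, the 10 largest increases and 10 largest decreases among called genes whose groups do not overlap, all called genes of the satellite cell and CBP lists, and the leading called genes of each other list. A pair of genes that this rule names is not reported here. Named regions were the 10 longest lost, gained and kept distal ones. Members and the 28 lists were chosen with earlier results of these data known. Alternatives were quantile scaling, lists cut to the 8969 strongest peaks (equal length), a −log10 q of at least 5, other distances, filters and added lengths, libraries of 0 h only, each library left out, and a replicate block. Figures were drawn with matplotlib 3.10.9.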

Additional observations from a re-analysis of the deposited data

How the results depend on the processing

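The direction of the library measures did not change in any setting run, and leaving out 1 library gave CBP to WT ratios of 0.487 to 0.595 for peaks, 0.388 to 0.513 for covered length and 0.849 to 0.907 for width. At a −log10 q of at least 5 these ratios were 0.333, 0.298 and 0.934, and with lists of equal length covered length gave 0.673 and width 0.699. The distal share differed by 4.70 to 6.40 points and the distal minus gene-end difference in WT peaks found again by 8.10 to 8.91 points. Leaving out a WT library gave no value for the difference in WT peaks found again. With lists of equal length, 848 gene-end and 1605 distal regions were lost, against 529 and 1736 gained, so gained distal regions then outnumbered lost ones. At a −log10 q of at least 5, 1448 gene-end regions were lost and 60 gained, and 246 distal regions were gained. Leaving out 1 library gave 2336 to 3533 lost and 260 to 452 gained gene-end regions, and 4923 to 7003 lost and 822 to 1335 gained distal regions.

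Genes lower and higher numbered 991 and 370 with lists of equal length, 1568 and 44 at the stricter q, 1469 and 761 with quantile scaling, and 1481 to 2092 and 56 to 137 without 1 library. Gene-end regions lower and higher numbered 1074 and 518 with equal length, 1519 and 65 at the stricter q, 665 and 631 with quantile scaling, and 0 to 2648 and 0 to 17 without 1 library. Distal regions numbered 2503 and 1722, 3672 and 272, 1695 and 1947, and 0 to 6461 and 0 to 67. For widths of kept regions, which were tested under alternatives chosen after seeing the data, gene-end regions narrower and wider numbered 70 and 4 at the stricter q, 112 and 72 with quantile scaling, and 0 to 294 and 0 to 3 without 1 library, with 6 wider at equal length. Distal regions numbered 269 and 13, 351 and 322, and 0 to 1105 and 0 to 13, with 29 wider at equal length. The causes were not tested.

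Gene-wise deviations from the group means of same-numbered libraries correlated at 0.0229 between CBP and WT at 0 h. A correlation does not see a shift in list length that same-numbered libraries share. Replicate 1 held more peaks than replicate 2 in CBP (10972 and 8969) and in WT (19531 and 17338) at 0 h. The same held at 60 h (17019 and 13750 in CBP, 23437 and 21694 in WT). Whether replicate numbers pair the libraries is therefore not settled. With the replicate number as a block, 2561 genes were lower and 122 higher, and 6 gene-end and 26 distal kept regions were wider. With quantile scaling the changes of CDC37 (0.33), EP300 (0.0132) and JAM3 (0.0401) turned, and with lists of equal length those of FOSL2 (0.65) and AMOTL2 (0.37). Of the 119 named genes that were called, 112 stayed called with 100 bp added, 94 with quantile scaling, 61 at the stricter q, 56 with equal length and 74 to 95 without 1 library. The planned windows around transcription starts were not run, since the gene table gives no strand. List length limits every count: depth is not given, and a peak missing from a list is not shown to be absent from the cells.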

Other observations

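Loss varied little among autosomes, from 40.4% of the WT regions on chromosome 10 to 51.1% on chromosome 17, and was 62.3% of 130 regions on chromosome X (58.1% of distal and 73.0% of gene-end regions there). Among 1287 genes with at least 5 distal WT regions within 100 kb, 9 lost all of them and 67 lost none. Those that lost all, picked after their values were seen, include POSTN, which encodes the matrix protein periostin (5 of 5), PAG1, a membrane adaptor of SRC kinases (5 of 5), STK38, a kinase of the Hippo family (5 of 5), and LAMB1 (7 of 7). Those that lost none include GLIS1, a zinc finger factor (10 of 10 kept), LPP, a focal adhesion protein (6 of 6 kept), RUNX2, the factor of bone formation (5 of 5 kept), and SRF, a factor that drives actin and muscle genes (5 of 5 kept). TNS1, a focal adhesion protein, and TRIO, a guanine nucleotide exchange factor, had the largest number lost, 10 of 24 and 10 of 21, with 8 kept at each.

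The peak lists of 60 h of differentiation were set on the regions lost and kept at 0 h. Of lost distal regions, 30.4 and 27.2% overlapped a peak in CBP 60 h cells and 44.7 and 41.1% in WT 60 h cells. Of kept distal regions, 48.0 and 46.0% did in CBP 60 h and 61.6 and 58.3% in WT 60 h. Lost gene-end regions had 47.3 and 41.5% in CBP 60 h and 75.6 and 72.0% in WT 60 h, and kept ones 65.3 and 59.9% in CBP 60 h and 85.3 and 83.0% in WT 60 h. At the region 365 kb from MYC that was gained at 0 h, CBP 60 h had 0 and 589 bp and WT 60 h 0 and 0 bp. The region near LIF had 795 and 774 bp in CBP 60 h and 1001 and 651 bp in WT 60 h, so it was listed without the inhibitor at the later time.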
